A study of Mus musculus with 12 samples.

Results

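The RNA levels of 10 genes that make, oxidise, move or sense lactate were examined in mouse brain, out of 31208 genes counted. They were chosen by name and are the lactate dehydrogenase genes Ldha, Ldhb and Ldhd, the monocarboxylate transporter genes Slc16a1, Slc16a3 and Slc16a7, the gene of their partner protein Bsg, the lactate receptor gene Hcar1, and the mitochondrial pyruvate carrier genes Mpc1 and Mpc2. The study asked how additional lactate acts on the ischemic brain. Male C57BL/6 mice of 8 weeks fell into 3 groups of 4: sham mice, ischemic mice given vehicle, and ischemic mice given lactate. Per the methods, vehicle (sterile saline) or lactate was injected into a cerebral ventricle (i.c.v.) on the day before the middle cerebral artery was occluded, and brains were taken 6 h after ischemia. The labels name lactate without its form, whereas the methods name D-lactate, and whether sham mice were injected is not stated in the sources used here. Full-length cDNA of total brain RNA was sequenced as nanopore reads, so values average over all cells of the tissue. Each library is taken as 1 mouse, as the sources used here name no pooling.

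Lactate dehydrogenase is a tetramer of A and B subunits. Ldha encodes the A subunit, which dominates in tissues that turn pyruvate into lactate, and Ldhb the B subunit, which dominates where lactate is oxidised, while Ldhd encodes a separate mitochondrial enzyme that oxidises D-lactate. In the brain, astrocytes and endothelial cells carry MCT1 (Slc16a1), astrocytes carry MCT4 (Slc16a3), which is suited to export, and neurons carry the high-affinity MCT2 (Slc16a7). MCT1 and MCT4 reach the cell surface together with basigin (Bsg). Pyruvate enters mitochondria through a pair of carrier subunits, MPC1 and MPC2, and HCAR1 is a cell surface receptor for L-lactate.

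Ldha and Slc16a3 are textbook targets of hypoxia-inducible factor, whose binding core is written ACGTG or GCGTG, so their promoters are shown beside those of Slc16a1 and Ldhb. Each is the RefSeq window on GRCm38.p6 from 250 bases before to 50 after an annotated start, read 5′ to 3′, and capitals mark the core on either strand.
Ldha, chr7:46845554-46845853, + strand: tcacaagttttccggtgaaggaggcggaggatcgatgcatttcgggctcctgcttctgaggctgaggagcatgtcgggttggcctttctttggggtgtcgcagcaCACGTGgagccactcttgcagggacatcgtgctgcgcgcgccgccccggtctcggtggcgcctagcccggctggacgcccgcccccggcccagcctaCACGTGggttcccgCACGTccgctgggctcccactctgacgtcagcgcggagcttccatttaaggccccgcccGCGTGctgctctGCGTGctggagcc
Slc16a3, chr11:120948817-120949116, + strand: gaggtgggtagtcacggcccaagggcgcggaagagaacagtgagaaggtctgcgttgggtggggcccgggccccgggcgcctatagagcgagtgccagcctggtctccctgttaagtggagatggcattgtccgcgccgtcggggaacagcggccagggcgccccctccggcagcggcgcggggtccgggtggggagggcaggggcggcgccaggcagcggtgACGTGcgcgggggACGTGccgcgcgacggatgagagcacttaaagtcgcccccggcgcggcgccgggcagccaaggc
Slc16a1, chr3:104638414-104638713, + strand: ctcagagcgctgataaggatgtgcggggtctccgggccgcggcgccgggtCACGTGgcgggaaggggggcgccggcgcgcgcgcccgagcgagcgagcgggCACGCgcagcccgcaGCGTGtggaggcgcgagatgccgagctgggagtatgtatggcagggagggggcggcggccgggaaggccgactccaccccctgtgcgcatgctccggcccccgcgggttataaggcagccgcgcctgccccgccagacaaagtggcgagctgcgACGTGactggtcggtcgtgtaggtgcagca
Ldhb, chr6:142507908-142508207, - strand: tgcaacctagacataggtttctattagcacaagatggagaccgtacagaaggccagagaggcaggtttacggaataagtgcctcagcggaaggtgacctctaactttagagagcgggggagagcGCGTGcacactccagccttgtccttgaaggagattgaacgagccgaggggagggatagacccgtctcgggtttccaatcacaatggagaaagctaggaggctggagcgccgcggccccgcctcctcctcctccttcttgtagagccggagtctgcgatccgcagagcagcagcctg
This Ldha window held 7 matches, of which 4 came from both strands of 2 copies of the palindrome CACGTG, with first bases at -145, -144, -48, -47, -34, 25 and 37 when the start is base 0. The Slc16a1 window held 5 matches at -200, -199, -149, -134 and 20, and the Slc16a3 window held 2 at -27 and -14. The Ldhb window held 1 at -126. Of 32851 such windows in the table, 43.8% held at least 1 match, 20.6% at least 2 and 3.86% at least 4. Windows were found for 8 of the 10 genes, 10 windows in all. A second Ldha window held 2 matches, Ldhd 2, Hcar1 1, Mpc2 1, and the Mpc1 windows 1 and 0. A match describes the letters and does not show that a factor binds there.

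Libraries held 6815920 to 10677224 counts. Levels are in CPM, which divides each count by its library's total and rescales it, and 3 counts, taken as the floor of detection, were worth 0.281 to 0.440 CPM. Intervals on read shares and this floor cover counting error only. Markers of neurons, astrocytes, oligodendrocytes, microglia and endothelial cells were detected in all 12 mice. The library of vehicle mouse 1 stood apart on the second principal component of all genes, at 49.4 against -12.2 to 4.2 in the other 11 mice. Vehicle mouse 2 held 1838 CPM of summed choroid plexus markers, against 1.36 to 5.41 in sham, 4.25 to 14.7 in the other vehicle mice and 10.3 to 19.2 with lactate. Values of Ldha, Slc16a1, Slc16a3, Bsg and Slc16a6 without vehicle mouse 1 are given beside their results.

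Ldha was the gene of the 10 whose level separated both ischemic groups from sham. It lies at chr7:46841475-46855627 on GRCm38. In sham mice 1 to 4, Ldha was at 769, 734, 744 and 774 CPM. In vehicle-treated ischemic mice it was at 781, 883, 902 and 970 CPM. In lactate-treated ischemic mice it was at 1098, 1073, 887 and 803 CPM. All 8 ischemic mice were above the highest sham mouse, the sham values were tight, and the vehicle and lactate groups overlapped. The means were 755 ± 19.6 CPM in sham, 884 ± 78.4 CPM with vehicle and 965 ± 143 CPM with lactate (SD, n = 4 each).

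With lactate, Ldha rose 1.31-fold against sham, a log2 fold change of 0.39 (SE 0.10, 95% interval 0.16 to 0.61, edgeR adjusted p = 0.0287). It was the only 1 of 9 tested members called at an adjusted p under 0.05, in a comparison where 12.3% of all tested genes were called, 8.76% as higher and 3.55% as lower. With vehicle, the log2 fold change of Ldha against sham was 0.26 (SE 0.10, 95% interval 0.04 to 0.49), with an edgeR p of 0.0250 before and 0.283 after adjustment. Both comparisons use the same sham mice. Groups that did not overlap and were higher than sham were found for 4.14% of tested genes with vehicle and 10.4% with lactate, and for 1 of the 9 tested members, Ldha, in each. Between the ischemic groups, the log2 fold change of Ldha with lactate against vehicle was 0.11 (SE 0.12, 95% interval -0.16 to 0.37, edgeR adjusted p = 0.824), so a change beyond 1.29-fold upward or 0.898-fold downward lay outside the interval.

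The adjusted p of Ldha with lactate depended on single mice. Leaving out 1 mouse at a time gave log2 fold changes of 0.32 to 0.47 and edgeR adjusted p-values of 0.00995 to 0.0800. The call was lost without sham mouse 1 (0.0669), 3 (0.0787) or 4 (0.0571), and without lactate mouse 1 (0.0774) or 2 (0.0800). Without vehicle mouse 1, Ldha with vehicle against sham gave 0.32 and an edgeR adjusted p of 0.0869, and without vehicle mouse 2 it gave 0.27 and 0.326. In that comparison its edgeR p before adjustment rose to 0.0528 and 0.0625 without sham mouse 1 or 3. It rose to 0.0529 and 0.0767 without vehicle mouse 3 or 4. GENCODE holds 13 processed pseudogenes that match Ldha at 90% identity or more over at least 300 bases, and 0 of them has a line in the table used here. For Ldhb it holds 1, at 98.0% identity over 1002 bases, also without a line there. How reads from such copies were assigned is not given in the sources used here.

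Ldhb, at chr6:142490249-142507957, was not called in any comparison. It was at 412, 382, 399 and 403 CPM in sham mice. With vehicle it was at 357, 411, 395 and 308 CPM, and with lactate at 390, 315, 342 and 377 CPM. Both ischemic groups overlapped sham, with 2 vehicle mice and 3 lactate mice below the lowest sham mouse. The log2 fold changes against sham were -0.08 with vehicle (95% interval -0.34 to 0.17, edgeR adjusted p = 0.817) and -0.13 with lactate (95% interval -0.33 to 0.06, edgeR adjusted p = 0.368).

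**Figure D1:**
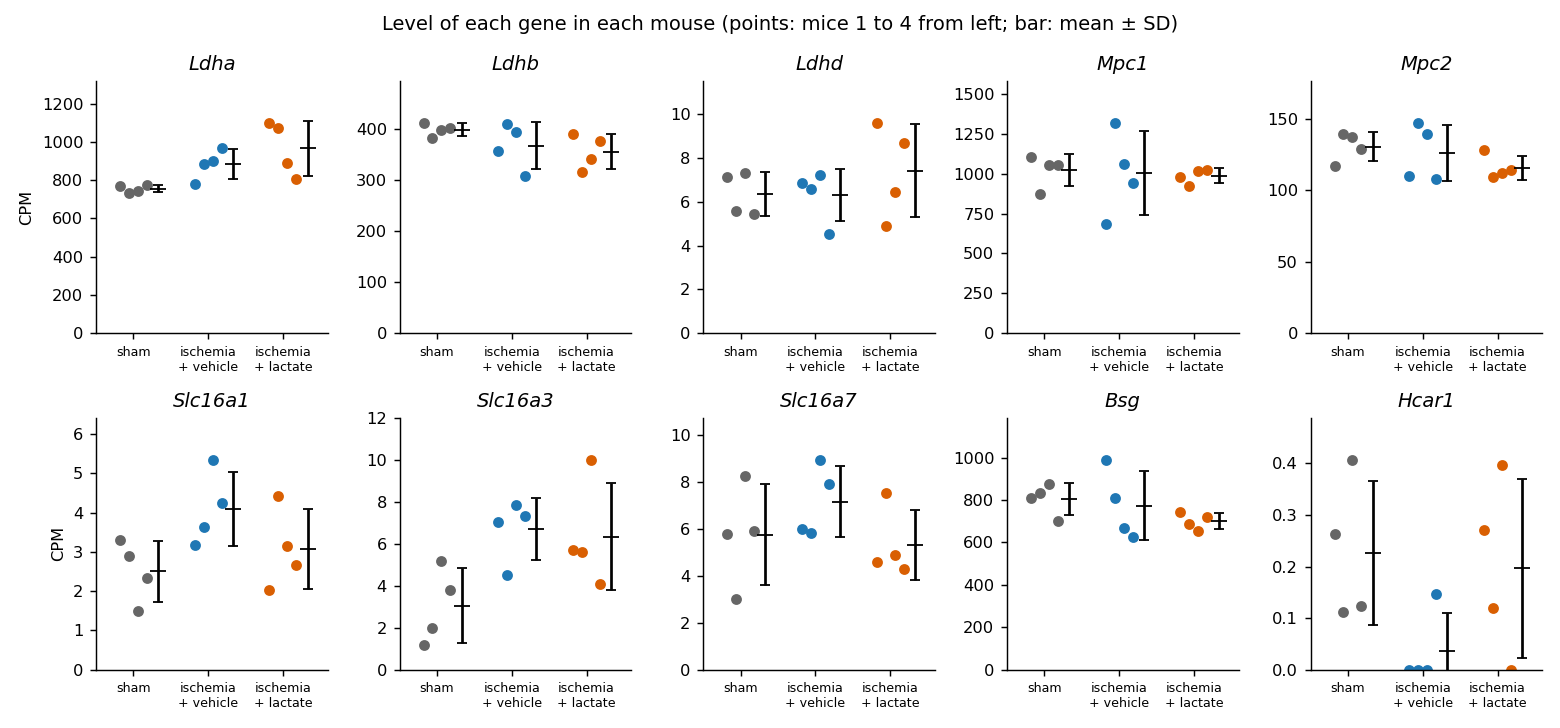
CPM of each of the 10 genes (vertical axes from 0) by group (sham, ischemia with vehicle, ischemia with lactate). Points are mice 1 to 4 of a group from left to right and bars are mean ± SD, and the Ldha points of the 8 ischemic mice lie above all 4 sham points, between 781 and 1098 CPM.

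In every ischemic mouse Ldha took a larger share of the A and B subunit reads than in any sham mouse. As a share of Ldha plus Ldhb reads, which is not corrected for transcript length, Ldha took 65.1, 65.7, 65.1 and 65.8% in sham mice. It took 68.6, 68.2, 69.6 and 75.9% in vehicle-treated and 73.8, 77.3, 72.2 and 68.0% in lactate-treated ischemic mice. All 8 ischemic mice were above all 4 sham mice. The mean share was 65.4% in sham (SD 0.399), 70.6% with vehicle (SD 3.60) and 72.8% with lactate (SD 3.84, n = 4 each). The 95% Wilson interval of the highest sham share was 64.8 to 66.7% and that of the lowest ischemic share 67.1 to 68.9%. This share needs no scaling between libraries. It is given as a description, without a test. The vehicle and lactate groups overlapped.

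Ldhd, the D-lactate dehydrogenase gene at chr8:111623785-111630374, was low, with 31 to 75 counts in each mouse. It ranged from 5.43 to 7.33 CPM in sham, from 4.55 to 7.22 CPM with vehicle and from 4.91 to 9.60 CPM with lactate. All 3 groups overlapped. With lactate, the log2 fold change was 0.26 against sham (95% interval -0.25 to 0.76, edgeR adjusted p = 0.526) and 0.21 against vehicle (95% interval -0.36 to 0.78, edgeR adjusted p = 0.846). Ldhd overlaps Znrf1 on the opposite strand, which held 11391 counts over the 12 mice against 651 for Ldhd, so its count is uncertain where reads were not assigned by strand.

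**Figure D2:**
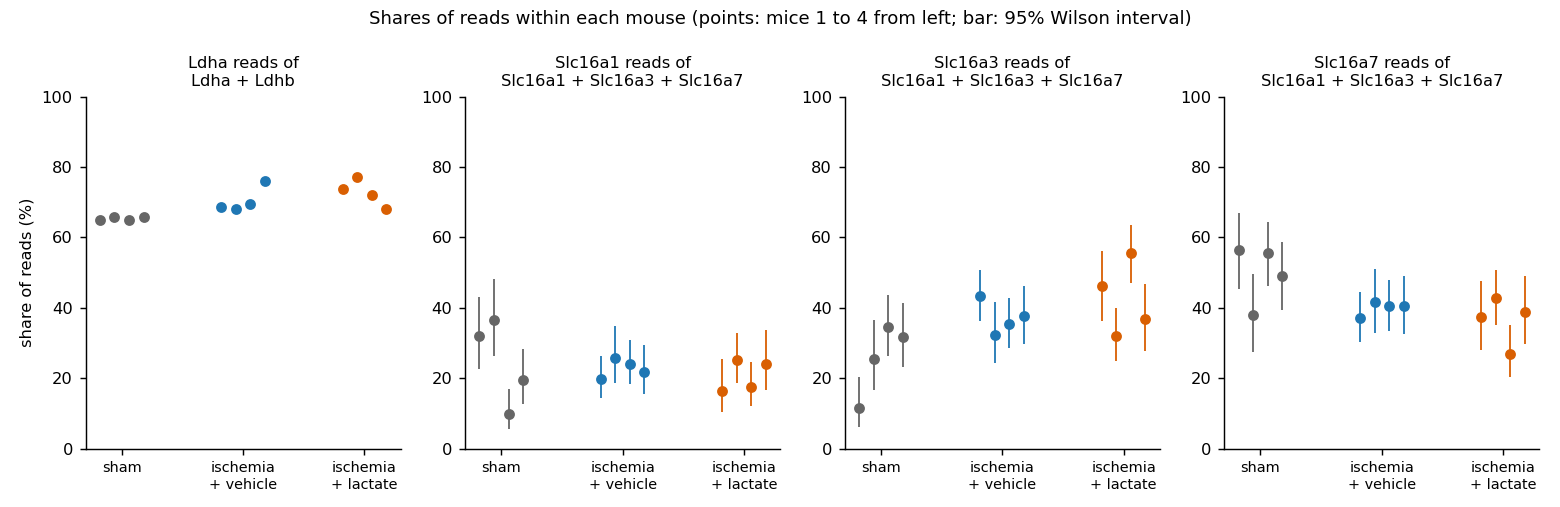
Shares of reads in percent (vertical axes) in each mouse: Ldha of Ldha plus Ldhb reads, and each transporter gene of the summed Slc16a1, Slc16a3 and Slc16a7 reads, with 95% Wilson intervals. Ldha shares are 65.1 to 65.8% in sham mice and 68.0 to 77.3% in the 8 ischemic mice, while the transporter shares overlap between sham and each ischemic group.

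Slc16a3, the export transporter gene at chr11:120948480-120960868, had the largest fold change against sham of the 9 tested genes in both comparisons, at low counts of 9 to 76 in each mouse. It was at 1.19, 2.01, 5.16 and 3.82 CPM in sham mice. With vehicle it was at 7.02, 4.53, 7.84 and 7.34 CPM, and with lactate at 5.68, 5.63, 10 and 4.06 CPM. In each ischemic group 3 of 4 mice were above all sham mice, and 1 lay within the sham range. The fold was 2.25 with vehicle (log2 1.17, SE 0.38, 95% interval 0.36 to 1.99) and 2.13 with lactate (log2 1.09, SE 0.39, 95% interval 0.24 to 1.94). The edgeR p-values were 0.00837 and 0.0158 before adjustment, and 0.186 and 0.0901 after it.

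At a second set of limits, a p under 0.05, left unadjusted here, with a fold change of at least 1.5, Slc16a3 passed in both comparisons with sham. So did 9.52% of all tested genes with vehicle and 17.5% with lactate, with 6.50% and 11.9% of tested genes higher and 3.01% and 5.65% lower. Without vehicle mouse 1 or 2, its log2 fold change with vehicle was 1.15 or 1.32, and its edgeR p before adjustment 0.0159 or 0.00601. In the lactate comparison the unadjusted p rose to 0.0514 without sham mouse 2 and 0.0712 without lactate mouse 3, in which Slc16a3 was highest. Lactate against vehicle gave -0.10 (95% interval -0.74 to 0.54, edgeR adjusted p = 0.945).

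Slc16a1, at chr3:104638668-104658462, was at 3.30, 2.90, 1.49 and 2.34 CPM in sham mice. With vehicle it was at 3.18, 3.63, 5.35 and 4.25 CPM, and with lactate at 2.03, 4.43, 3.16 and 2.67 CPM. With vehicle 3 of 4 mice were above all sham mice, and with lactate 1 of 4 was. The log2 fold change against sham was 0.73 with vehicle (1.66-fold, SE 0.30, 95% interval 0.08 to 1.39), with an edgeR p of 0.0315 before and 0.309 after adjustment. It thus passed the unadjusted limits, as the second of 2 members in that comparison. Its unadjusted p was 0.0941, 0.0647, 0.0984 and 0.0530 without sham mouse 3, sham mouse 4, vehicle mouse 3 and vehicle mouse 4, and 0.0177 and 0.0365 without vehicle mouse 1 and 2. With lactate the log2 fold change was 0.32 against sham (95% interval -0.37 to 1.01) and -0.43 against vehicle (95% interval -1.08 to 0.22), with edgeR adjusted p-values of 0.565 and 0.705.

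Slc16a7, the neuronal transporter gene at chr10:125219270-125389465, was at 5.80, 3.01, 8.28 and 5.92 CPM in sham mice. With vehicle it was at 5.99, 5.83, 8.96 and 7.92 CPM, and with lactate at 4.60, 7.54, 4.88 and 4.29 CPM. The groups overlapped in all 3 comparisons. The log2 fold changes were 0.36 with vehicle against sham, -0.06 with lactate against sham and -0.44 with lactate against vehicle, with 95% intervals of -0.26 to 0.98, -0.69 to 0.56 and -1.0 to 0.11. Among the reads of the 3 transporter genes, Slc16a3 took a mean of 25.8% in sham, 37.2% with vehicle and 42.6% with lactate (SD 10.2, 4.63 and 10.4, n = 4 each). Slc16a7 took 49.7, 39.9 and 36.5% (SD 8.46, 2.03 and 6.76) and Slc16a1 24.5, 22.9 and 20.8% (SD 12.1, 2.74 and 4.48). These shares overlapped between sham and each ischemic group.

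Bsg, at chr10:79704491-79711969, was read deeply, with 4275 to 10572 counts in each mouse. It was at 811, 834, 875 and 700 CPM in sham mice, at 990, 811, 667 and 627 CPM with vehicle and at 744, 686, 656 and 722 CPM with lactate. Vehicle mouse 1, whose library stood apart, was the highest of the 12, and the groups overlapped. The log2 fold changes against sham were -0.02 with vehicle (95% interval -0.34 to 0.30) and -0.17 with lactate (95% interval -0.36 to 0.03), with edgeR adjusted p-values of 0.971 and 0.258. Without vehicle mouse 1 the change with vehicle was -0.16. Lactate against vehicle gave -0.16 (95% interval -0.48 to 0.15, edgeR adjusted p = 0.768).

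The pyruvate carrier genes were also not called. Mpc1, at chr17:8282904-8297661, was at 1105, 874, 1053 and 1052 CPM in sham mice. With vehicle it was at 686, 1318, 1062 and 944 CPM, and with lactate at 981, 923, 1020 and 1024 CPM. The lowest and the highest of the 12 mice were vehicle mice 1 and 2, the libraries that stood apart on the second component and in choroid plexus markers. Without vehicle mouse 1 or 2, the log2 fold change of Mpc1 with vehicle against sham was 0.16 or -0.14. Why these libraries differed in Mpc1 was not tested. The log2 fold change with lactate against sham was -0.02, and its 95% interval of -0.19 to 0.16 was the narrowest of the 9 tested members in that comparison. With vehicle against sham it was 0.01 (95% interval -0.35 to 0.37). Mpc2, at chr1:165460637-165481214, ranged from 117 to 139 CPM in sham, from 108 to 147 CPM with vehicle and from 109 to 128 CPM with lactate. In the lactate group 3 of 4 mice were below all sham mice. Its log2 fold changes against sham were -0.02 with vehicle (95% interval -0.32 to 0.29) and -0.15 with lactate (95% interval -0.37 to 0.08).

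Hcar1, the lactate receptor gene at chr5:123876736-123880020, was at or below the floor of 3 counts in every mouse. It had 2, 1, 3 and 1 counts in sham mice, 0, 0, 0 and 1 with vehicle, and 2, 1, 3 and 0 with lactate. The sums were 7, 1 and 6 counts over the 4 mice of each group. It did not pass the filter on low counts, so a difference in Hcar1 between the groups was not tested.

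**Figure D3:**
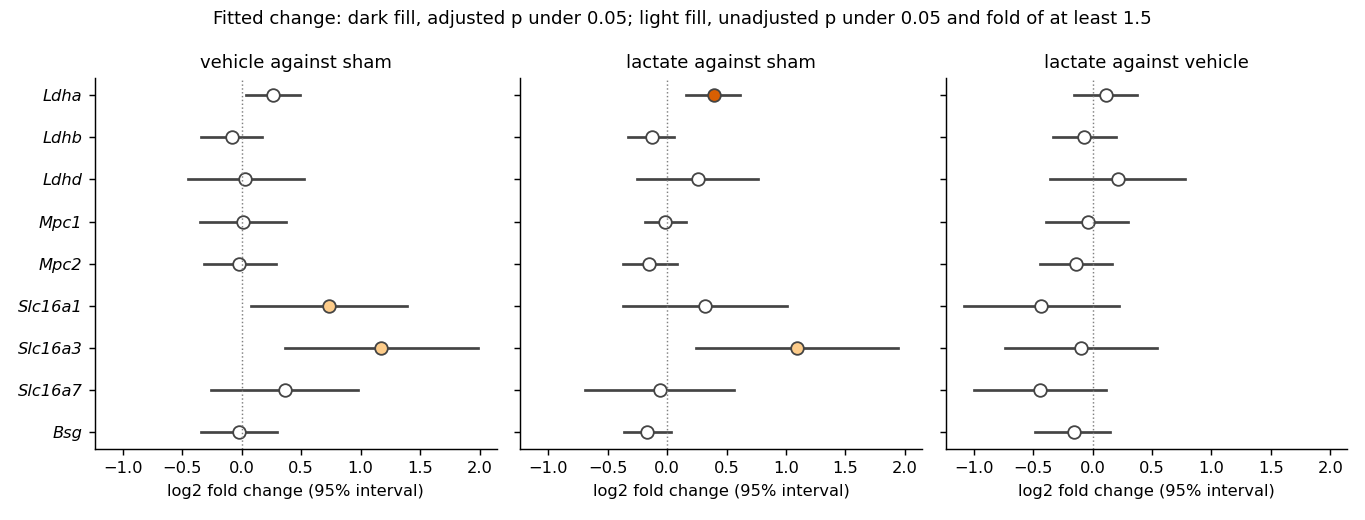
Fitted log2 fold changes (horizontal axes) of the 9 tested genes in the 3 comparisons, with 95% intervals from edgeR. The dark point is Ldha with lactate against sham (0.39, adjusted p under 0.05), and light points are Slc16a1 and Slc16a3 at the unadjusted limits.

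Of the 10 members, 9 passed the filter of at least 1 CPM in at least 4 of the 8 mice compared. With vehicle against sham, 0 of 9 was called by edgeR at an adjusted p under 0.05 where 1.47% of all tested genes were (1.29% higher and 0.182% lower), and 3 had an unadjusted p under 0.05 (Ldha, Slc16a1 and Slc16a3) where 13.8% did. With lactate against sham, 2 of 9 had an unadjusted p under 0.05 (Ldha and Slc16a3) where 27.1% of all tested genes did. With lactate against vehicle, 0 of 9 was called where 0.00574% of all tested genes were, and 0 had an unadjusted p under 0.05 where 8.84% did. DESeq2 and limma voom also called 0 members at an adjusted p under 0.05 in these 2 comparisons, among 476 and 177 of 17019 genes called with vehicle against sham and 62 and 0 of 17419 with lactate against vehicle. At the unadjusted limits, 0 of 9 passed in this last comparison, where 6.23% of all tested genes did (2.47% lower). The median log2 fold change of the 9 was 0.03, -0.02 and -0.10 in the order given.

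Summed marker levels of the cell types a brain sample can hold are given as a description, without a test. Summed microglia markers were at 141 to 167 CPM in sham, 112 to 127 CPM with vehicle and 170 to 190 CPM with lactate, without overlap. Endothelial markers were at 75.4 to 87.5, 53.8 to 83.8 and 53.9 to 71.7 CPM, and neutrophil markers at 2.79 to 7.65, 12 to 75.8 and 20.5 to 43.6 CPM. Red blood cell markers were at 560 to 633 CPM in sham, 333 to 500 CPM with vehicle and 375 to 499 CPM with lactate. Red blood cell and neutrophil markers thus separated both ischemic groups from sham, as Ldha did, downward and upward respectively. Choroid plexus markers with lactate, given above, were also above all sham mice, while with vehicle they overlapped sham. Oligodendrocyte markers were at 6572 to 10468, 5219 to 9776 and 8247 to 9328 CPM and overlapped in all groups. Astrocyte markers were at 572 to 858, 651 to 778 and 652 to 794 CPM, and neuron markers at 4373 to 4717, 3619 to 5498 and 3644 to 4352 CPM. Neuron and endothelial markers with lactate were below all sham mice, while with vehicle they overlapped sham, and astrocyte markers overlapped in all groups. All genes of these lists were detected. In whole tissue a change in the number of cells and a change in RNA per cell cannot be told apart, and the part of these marker levels in the Ldha and Slc16a3 values was not tested.

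Around these 10 genes, 36 others of lactate and pyruvate handling were listed, of which 23 were tested. At an adjusted p under 0.05, edgeR called 0 of 23 with vehicle against sham, 1 with lactate against sham, lower, and 0 with lactate against vehicle, where 1.47%, 12.3% and 0.00574% of all tested genes were called. Before adjustment, 3, 7 and 4 of them had a p under 0.05, beside 13.8%, 27.1% and 8.84% of all tested genes, which are also the shares for the counts of each list named next. Their median log2 fold changes were 0.07, -0.08 and -0.11.

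The gene called was Ndrg3, which encodes a protein reported to bind lactate and to persist under low oxygen. It was at 1147, 1125, 1157 and 1187 CPM in sham mice. It was at 897, 962, 921 and 871 CPM with vehicle and at 816, 744, 803 and 892 CPM with lactate. All 8 ischemic mice were below all 4 sham mice, the opposite arrangement to Ldha, which 4.89% of tested genes showed with vehicle and 8.74% with lactate. Its log2 fold change with lactate against sham was -0.47 (0.720-fold, SE 0.08, edgeR adjusted p = 0.00255), and this call held with each mouse left out in turn (adjusted p 0.00372 to 0.0115). With vehicle against sham it was -0.30 (SE 0.10), with an edgeR p of 0.00735 before and 0.177 after adjustment.

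**Figure D4:**
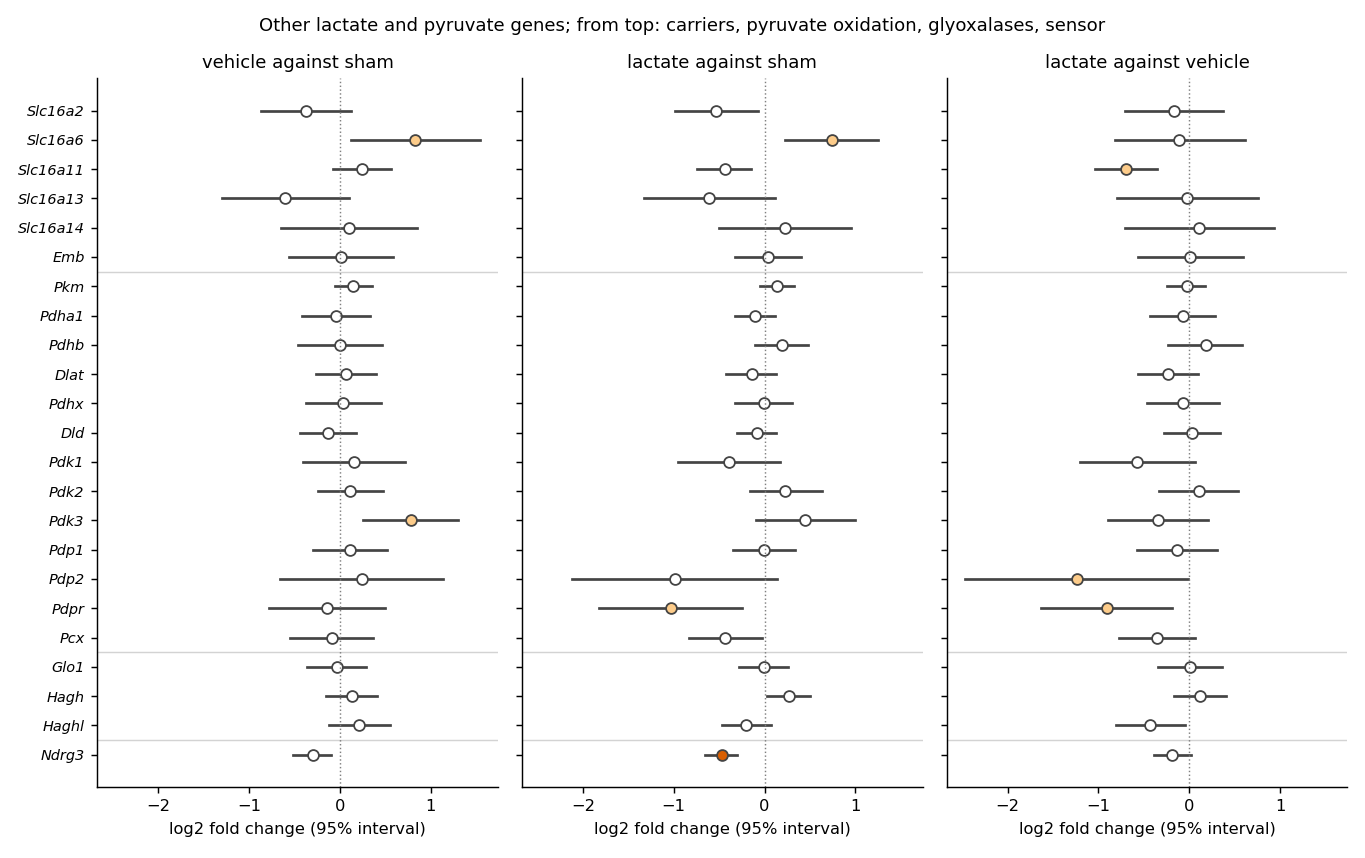
Fitted log2 fold changes (horizontal axes) with 95% edgeR intervals of the 23 tested genes listed around the members, in the 3 comparisons, with grey lines between lists. The dark point is Ndrg3 with lactate against sham at -0.47, and light points passed an unadjusted p under 0.05 with a fold change of at least 1.5.

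Among 14 other monocarboxylate carriers and partner proteins, 6 were tested and 0 were called by edgeR after adjustment, with 1, 3 and 1 at an unadjusted p under 0.05 in the 3 comparisons. Slc16a6, a carrier of ketone bodies, ranged from 5.16 to 8.14 CPM in sham, from 7.19 to 20.5 CPM with vehicle and from 7.84 to 14.7 CPM with lactate. It passed the unadjusted limits in both comparisons with sham, at log2 fold changes of 0.83 and 0.74 (edgeR adjusted p = 0.285 and 0.0570). The vehicle call rests on single mice. Slc16a6 was highest in vehicle mouse 1, and without it the log2 fold change with vehicle was 0.38 and the edgeR p before adjustment 0.136, while that p was 0.0672 and 0.0726 without sham mouse 1 or 3. Without lactate mouse 2 the log2 fold change with lactate was 0.58, just under the fold limit. Slc16a11, reported to carry pyruvate, was the carrier that differed between the ischemic groups at those limits. It was at 85.3, 72.9, 72.8 and 91.7 CPM with vehicle and at 46.5, 57.4, 41.0 and 56.6 CPM with lactate, without overlap, and at 57.0 to 82.0 CPM in sham. In lactate against vehicle, 1.83% of tested genes were lower and 2.99% higher without overlap. The log2 fold change was -0.70 (0.615-fold, SE 0.16), with an edgeR p of 7.48e-04 before and 0.371 after adjustment. DESeq2 called it (-0.69, adjusted p = 0.0182), among 62 genes that it called in this comparison.

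Of 14 genes of pyruvate oxidation and carboxylation, 13 were tested and 0 were called by edgeR after adjustment, with 1, 2 and 2 at an unadjusted p under 0.05. Pdk3, a kinase that switches off pyruvate dehydrogenase, ranged from 4.48 to 7.47 CPM in sham and from 7.31 to 11.7 CPM with vehicle (log2 0.78, SE 0.24, edgeR adjusted p = 0.170). With lactate Pdk3 ranged from 4.87 to 10.4 CPM, a log2 fold change of 0.45 against sham (95% interval -0.09 to 1.00, edgeR adjusted p = 0.278), which did not pass either limit. Pdpr, a regulatory subunit of the opposing phosphatase, was at 2.79 to 6.38 CPM in sham, 3.36 to 3.76 CPM with vehicle and 1.04 to 2.64 CPM with lactate. Its log2 fold changes with lactate were -1.03 against sham and -0.91 against vehicle (edgeR adjusted p = 0.0826 and 0.511). The p before adjustment was 0.0667 without sham mouse 3 in the former, and 0.0511 and 0.0542 without lactate mouse 1 or 4 in the latter. Pdp2, a catalytic subunit of that phosphatase, was at 0.648 to 2.12 CPM with vehicle and 0.120 to 1.35 CPM with lactate, 1 to 20 counts in each of these 8 mice (log2 -1.24, edgeR adjusted p = 0.561). Its edgeR p before adjustment was 0.109, 0.0651 and 0.110 without lactate mouse 2, 3 or 4. Pdp2 reached 1 CPM only in vehicle mice 1, 3 and 4 and lactate mouse 1 of these 8. It fell below the filter when any of those was left out, so only 4 such refits tested it. The 3 glyoxalase genes, whose pathway makes D-lactate inside cells, were tested and 0 were called by edgeR after adjustment, with 0, 1 and 1 at an unadjusted p under 0.05. The other 2 lactate dehydrogenase genes, Ldhc and Ldhal6b, were too low to be tested.

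The genes whose pattern over the 12 mice was most like that of Ldha were Aamp, 9530068E07Rik and Rplp0. The measure was the root mean square difference of log2(CPM + 1) after centring each gene, over 12905 genes. CPM was for this measure also scaled by TMM factors of the 12 mice. The difference was 0.073, 0.098 and 0.100, against an SD of 0.190 for Ldha itself.

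**Figure D5:**
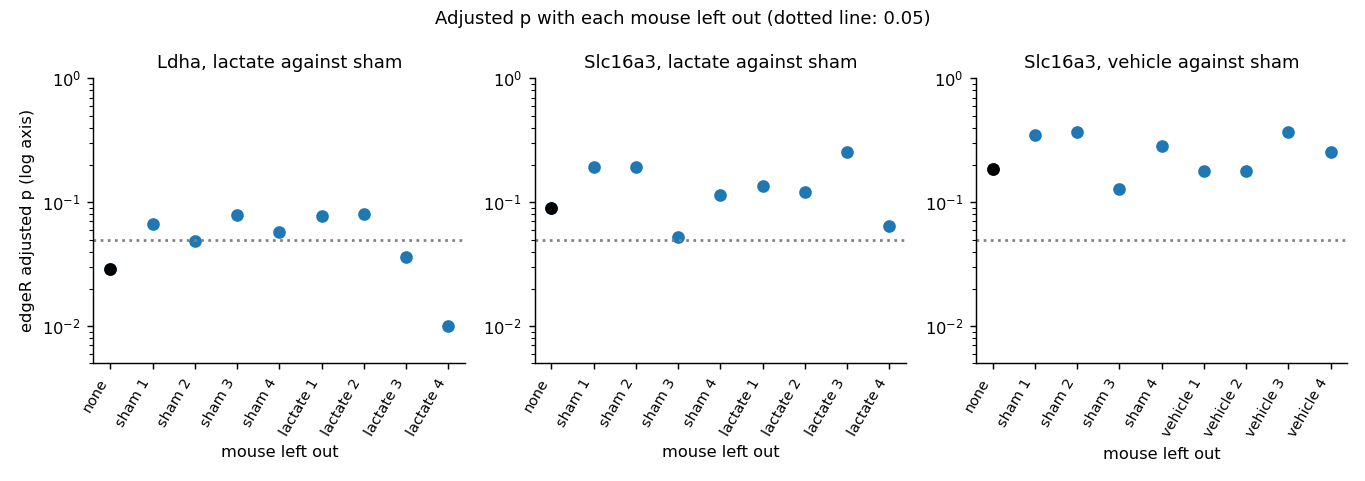
Adjusted p-values from edgeR (log axis) with all mice (black) and with each mouse left out (blue), for Ldha with lactate against sham and Slc16a3 in both comparisons with sham. Ldha crosses the dotted line at 0.05 in 5 of 8 cases, and Slc16a3 stays above it in all.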

How the data were processed

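Brain RNA of 12 mice was analysed, with groups and mouse numbers from the sample labels. The authors deposited raw counts per gene and, from the same counts, CPM scaled to each library total. Per the methods, nanopore reads were filtered for quality and length, ribosomal reads were removed, and full-length non-chimeric reads were mapped with minimap2, polished with pinfish and compared with gffcompare. The submitters' processing notes name GRCm38. How reads were counted is not given in the sources used here. Since shorter reads were removed, levels of short transcripts may be understated. The authors' own p-values and fold changes, whose columns name edgeR while the methods name DESeq, were not used, and 4 lines without a gene were dropped, while 0 per-sample columns stayed unused.

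Pairs of groups were tested with the quasi-likelihood test of edgeR 4.0.16 under R 4.3.3 (TMM factors, at least 1 CPM in at least 4 of the 8 mice compared, Benjamini-Hochberg adjustment over all tested genes, 17019 to 17419). Genes were called at an adjusted p under 0.05, or at an unadjusted p under 0.05 with a fold change of at least 1.5. Alternatives used RLE factors, library totals, DESeq2 1.42.0, limma 3.58.1 (voom), no filter, only Ensembl genes, a fit of 12 mice, a block, and each mouse left out. The members and lists were chosen with earlier results of these data known. Named genes are the members, listed genes called by either rule, and for each called member the 3 genes most like it. Positions are from GENCODE M21. Similar sequences were found with BLAST 2.17.0. Tests were tested on simulated data.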

Additional observations from a re-analysis of the deposited data

Results flagged for a closer look

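Within the 4 vehicle-treated mice, Hcar1 was at 0.147 CPM in vehicle mouse 4 and at 0 in the other 3. The value is 1 count, below the floor of 3, and any single read beside 3 mice at 0 would have been singled out in the same way. It was 1 of 42 sets of 4 values examined (10 genes and 4 read shares in each of 3 groups), and chance alone singles out about 1 in 20.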

How the results depend on the processing

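Of 556 refitted values, 513 kept their direction and their side of the threshold, 31 reversed (24 with a mouse left out), and the largest log2 fold change that reversed was 0.10. The Ldha call with lactate against sham held in all 8 alternatives that kept every mouse (adjusted p 0.0192 to 0.0456). Reversed with vehicle against sham were Ldhd (-0.01) and Mpc1 (-0.03) with library totals, Mpc1 (-0.03) with limma voom, Mpc2 (0.00) with Ensembl genes only, and Mpc1 (-0.02) with the replicate block. Mpc1 reversed with lactate against sham with Ensembl genes only (0.03), and with lactate against vehicle in limma voom (0.00). With a mouse left out, log2 fold changes with vehicle against sham spanned -0.03 to 0.16 for Ldhd, -0.16 to 0.07 for Bsg, -0.14 to 0.16 for Mpc1, -0.09 to 0.06 for Mpc2 and -0.13 to 0.00 for Ldhb. With lactate against sham they spanned -0.07 to 0.02 for Mpc1 and -0.28 to 0.16 for Slc16a7, and with lactate against vehicle -0.18 to 0.12 for Mpc1 and -0.40 to 0.07 for Slc16a3. Members called with lactate against sham numbered 0 to 1 with a mouse left out, among 1295 to 1934 genes. At the unadjusted limits they numbered 1 to 2 with vehicle against sham, 0 to 1 with lactate against sham and 0 to 1 with lactate against vehicle, among 1345 to 1840, 2453 to 3018 and 835 to 1384 genes. Mouse numbers are shared between groups but mark different animals, and the deviations of same-numbered mice correlated at -0.11 to 0.17. With the number as a replicate block, 2 members were called with lactate against sham, as Slc16a3 passed (1.13, adjusted p = 0.0308) among 2283 of 17262 genes, and 1 instead of 2 passed the unadjusted limits with vehicle against sham, among 1567 of 17019 genes, as Slc16a1 did not pass. The cause of these shifts was not tested. Among listed genes, the block also called Slc16a6 (0.74, adjusted p = 0.0296) and Pdpr (-1.04, adjusted p = 0.0477) with lactate against sham, and DESeq2 called Slc16a11 with lactate against vehicle (-0.69, adjusted p = 0.0182) and Slc16a6 with lactate against sham (0.75, adjusted p = 0.0349), while their adjusted p-values spanned 0.0182 to 0.750 and 0.0296 to 0.171 over all alternatives. Depth limits Hcar1, with at most 3 counts in each mouse, and Ldhd, Slc16a1, Slc16a3 and Slc16a7, with at most 76.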

Other observations

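Slc16a4, a carrier whose substrate is not settled, was singled out after its values were seen. It fell below the filter on low counts in the comparisons with sham, since 3 of 8 mice reached 1 CPM. It had 7, 19, 8 and 17 counts in sham mice, 5, 4, 2 and 2 with vehicle, and 1, 1, 1 and 4 with lactate. These correspond to 0.923 to 2.12 CPM in sham, 0.249 to 0.518 CPM with vehicle and 0.120 to 0.464 CPM with lactate, so all 8 ischemic mice were below all 4 sham mice, as they were for 3.54% of genes with a count in the vehicle comparison and 6.04% in the lactate comparison. Without the filter, edgeR gave log2 fold changes against sham of -1.95 with vehicle (SE 0.50, adjusted p = 0.0752) and -2.79 with lactate (SE 0.57, adjusted p = 0.00487), in fits that called 1.24% and 9.45% of all genes at an adjusted p under 0.05. Slc16a4 was 1 of 13 listed genes below the filter that were refitted in this way. Of these, Gpr132 had 0 counts in sham and vehicle mice and was refitted only in the comparisons with lactate. Among the genes refitted other than Slc16a4, the lowest edgeR adjusted p against sham was 0.220 with vehicle (Slc16a5) and 0.105 with lactate (Hcar2). Slc16a5 summed to 11 counts in sham, 1 with vehicle and 7 with lactate, and Hcar2 to 0, 2 and 7.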
